A study of Arabidopsis thaliana with 12 samples.

Results

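The genes of the mitochondrial genome of Arabidopsis thaliana were taken as every row of the deposited expression tables whose identifier begins with ATMG. There were 152 of them among 32833 genes. The 54 that reached at least 1 TPM (a transcript level scaled to gene length and to the library's total) in at least 3 of the 12 libraries are described, whichever group those libraries came from. RNA was sequenced from whole seedlings that were 10 days old and dark-grown. They were wild type (WT) or carried a mutation of cryptochrome 1, a receptor of blue light (cry1), whose allele is not given in the sources used here. Each genotype was collected in the dark (WT dark, cry1 dark) or after 1 h under continuous blue illumination of 40 µmol m-2 s-1 (WT blue, cry1 blue), with 3 libraries in each of the 4 groups. Nothing in the labels tells whether the 3 libraries were sown apart. The p-values then rest on the spread of libraries that may be technical repeats.

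The mitochondrial genome of plants encodes subunits of the respiratory complexes and of ATP synthase, proteins that mature cytochrome c, ribosomal proteins, ribosomal and transfer RNAs, and many open reading frames with no assigned role. Nuclear genes supply the RNA polymerases that transcribe it and the factors that splice, edit and trim its transcripts. Most mature mitochondrial RNAs of plants carry no stable poly(A) tail, and a tail marks them for decay, so a library made from poly(A) RNA holds few of them. Whether these libraries were selected for poly(A) RNA is not given in the sources used here.

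The files do not pair the identifiers with gene names. The nucleus of Arabidopsis carries a large copy of mitochondrial DNA in chromosome 2, and RefSeq, on assembly TAIR10.1, notes for 55 nuclear genes which ATMG identifier they resemble, 53 of which lie wholly within the stretch taken here as that copy. Through these notes 19 of the 54 identifiers could be tied to a nuclear copy. Of these, 14 had a described product, 4 an unknown protein and 1 a pseudogene of ATMG01210, and the other 35 are given by identifier alone. The RefSeq mitochondrial chromosome has 367808 bases and 56 named genes, which are not paired with the identifiers there.

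Where they align, the nuclear copies are close to identical with the mitochondrial genome. Of the 18 coding copies that belong to described identifiers, 10 matched at 100% of the aligned bases, and the lowest identity was 99.2%. The alignment spanned the whole coding sequence in 13, of which 9 were identical throughout, and from 26.3% to 87.5% of it in the other 5. Over the 270001 bases of chromosome 2 that hold the copy, mitochondrial matches of at least 1000 bases covered 99.5%. Short reads from the aligned parts of either copy can carry the same sequence, and how the authors placed such reads is not given in the sources used here. The pair below, from RefSeq TAIR10.1, is shown because a single base tells the 2 copies of the gene noted as ATP synthase 9 (ATMG01090 and AT2G07777) apart in a stretch of 61 bases. The capital marks that base, at MT:270361-270421 and at 2:3251256-3251316, both on the minus strand. Over the 789 bases of the coding sequence of AT2G07777 the 2 differences were A260C and C524A, with the nuclear base first and positions counted from 1 at the first base of the coding sequence. The RefSeq mitochondrial chromosome names no gene where AT2G07777 matches. Its atp9 gene lies where AT2G07671, the copy of ATMG01080, matches, so ATP synthase 9 is for ATMG01090 the noted name alone.
mitochondrial copy of ATMG01090: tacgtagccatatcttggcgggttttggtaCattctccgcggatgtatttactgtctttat
AT2G07777: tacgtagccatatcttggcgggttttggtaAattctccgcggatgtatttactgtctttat

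Mitochondrial sequences also resemble each other. ATMG00590, noted as a cytochrome b/b6 protein, has the clearest light response among the 54, and its opening bases are nearly those of ATMG00220, apocytochrome b, the haem-carrying core of respiratory complex III. Both are printed from the RefSeq mitochondrial genome where it matches the coding sequences of their nuclear copies AT2G07718 and AT2G07727. They lie at MT:207309-207458 and MT:182709-182858, both on the minus strand, and capitals mark the first 130 bases, the stretch they share. Of these, 129 were identical (99.2%), and the substitution was G21A, with the base of ATMG00590 first and positions counted from 1 at the first base. Past that stretch the sequences differ, as the lower-case letters show.
ATMG00590: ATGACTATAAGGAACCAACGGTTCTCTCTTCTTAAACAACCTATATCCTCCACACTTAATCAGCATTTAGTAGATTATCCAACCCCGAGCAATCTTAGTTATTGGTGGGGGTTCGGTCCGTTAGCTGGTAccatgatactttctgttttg
ATMG00220: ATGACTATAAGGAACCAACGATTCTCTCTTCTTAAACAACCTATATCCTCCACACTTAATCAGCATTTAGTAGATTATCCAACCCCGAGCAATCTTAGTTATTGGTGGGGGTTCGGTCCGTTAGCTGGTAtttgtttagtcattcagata

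CRY1, the gene of the missing receptor, stood at 23.8 to 59.9 TPM in the 6 WT libraries and at 0 to 1.71 TPM in the 6 cry1 libraries. Read depth is unknown from TPM, which leaves no counting interval or lower limit of detection, and genes at 0 are called listed at 0. Between 18409 and 19380 genes reached 1 TPM in a library. The 133 genes of the plastid genome summed to 2064, 10102 and 8417 TPM in WT dark, to 12582, 7864 and 4664 in WT blue, 16577, 16964 and 17157 in cry1 dark, and 15844, 21910 and 25968 in cry1 blue. Of 4 root markers (COBL9, EXPA7, EXPA18 and IRT1), the sums were 2.75 to 5.13 TPM in WT dark, 0.18 to 3.32 in WT blue, 10.8 to 20.0 in cry1 dark and 38.0 to 56.4 in cry1 blue. IRT1 was listed at 0 in all 3 WT blue libraries. The seed markers CRU3 and OLEO1 summed to 0 to 0.11 TPM in WT dark and to 0 to 0.30 in WT blue. In cry1 dark replicates 1 to 3 they summed to 9.62, 0.13 and 0.31 TPM, and in cry1 blue to 0.34, 13.2 and 0.36. Their part in the results below was not tested. In RNA of whole seedlings, fewer cells of a type and less RNA per cell cannot be told apart.

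Mitochondrial identifiers were a small share of the RNA, and in blue light their sums were higher in cry1 than in WT. All 152 together summed to 250, 826 and 338 TPM in WT dark and to 309, 226 and 143 TPM in WT blue. In cry1 they summed to 840, 739 and 713 TPM in the dark and to 581, 763 and 858 TPM in blue light. Every cry1 blue library thus lay above every WT blue library, while WT dark replicate 2 lay among the cry1 dark libraries and the other 2 WT dark libraries lay below them. These sums were 0.0144% to 0.0874% of the library total. The ratio of the cry1 mean to the WT mean was 3.25 in blue light and 1.62 in the dark. Leaving out 1 library at a time gave 2.74 to 3.98 in blue light and 1.31 to 2.60 in the dark, where 2.60 was without WT dark replicate 2.

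**Figure D1:**
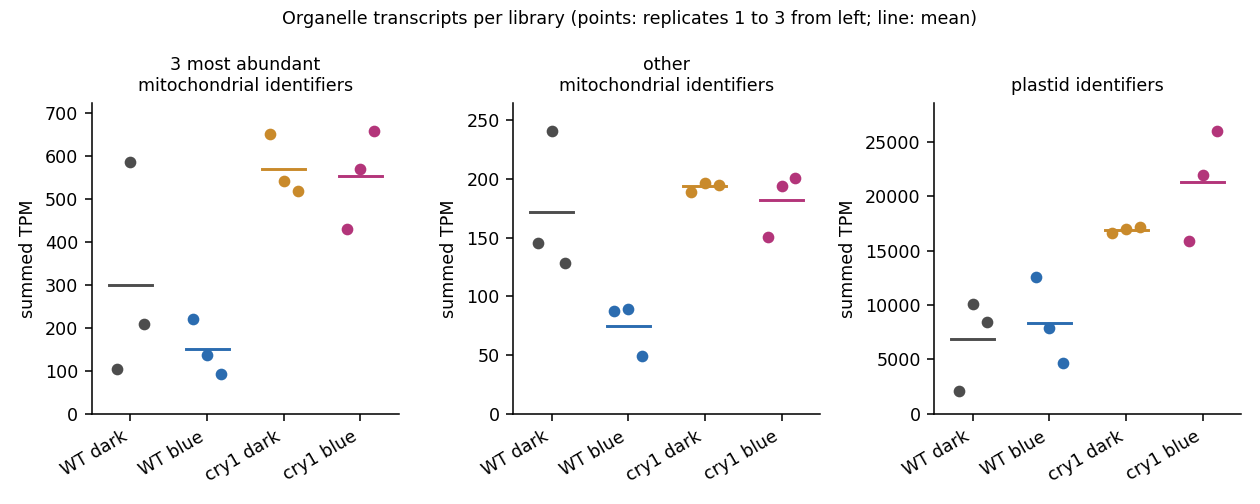
Summed TPM in each library (points, replicates 1 to 3 from left in each group) with the group mean (line) for the 3 most abundant mitochondrial identifiers, the other 149 and the 133 plastid identifiers; each panel has its own axis from 0. All cry1 blue points lie above all WT blue points in each panel, and WT dark replicate 2 is the highest WT dark library in all panels.

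The 3 most abundant identifiers, ATMG01390, ATMG00020 and ATMG00030, for which the reference notes no nuclear copy, made up 41.9% to 77.5% of the sum of a library. Their summed mean was 3.66 times the WT value in cry1 under blue light, and that of the remaining identifiers 2.42 times. In the dark the ratio of the 3 was 1.90, or 3.62 without WT dark replicate 2. That of the remaining identifiers was 1.13, or 1.57 without ATMG01380, which is described with the identifiers below the rule. The 3 are the identifiers with a mean above 10 TPM, 25 others averaged between 2 and 10 TPM and 26 averaged 2 TPM or less. The median of the 54 means was 2.11 TPM, so that most of the results below concern RNAs at the low end of the scale. Of the 54, 14 reached 1 TPM in all 12 libraries. Of all 152 identifiers, described or not, 38 were above 0 in all 12 libraries. ATMG01350 was described through cry1 blue alone, the single group in which it reached 1 TPM.

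Of the 98 identifiers that were not described, 39 were listed at 0 in all 12 libraries and 59 were above 0 but short of the rule. Of these, 11 reached 1 TPM in exactly 2 libraries, against 6 described identifiers that reached it in exactly 3. The highest of the 11 was ATMG01380, listed at 42.5 TPM in WT dark replicate 1, at 102 TPM in WT dark replicate 2 and at 0 in the other 10 libraries. The others averaged 0.345 to 0.578 TPM, and those just inside the rule averaged 0.412 TPM (ATMG00290) to 0.909 TPM (ATMG01350).

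In blue light every identifier that passed the test was higher in cry1. Of the 54 identifiers, 24 were higher in cry1 blue than in WT blue and none was lower, at a Benjamini-Hochberg adjusted p under 0.05 from limma on log2(TPM + 1). Among all 20314 genes tested, 10.9% were higher and 14.3% lower. The 24 include ATMG01350, which met the level for description through cry1 blue, the group where it is high; without it 23 of 53 were higher. No identifier was lower at an unadjusted p under 0.05 either, and 31 were higher. The median log2 fold change was 0.74 over the 54 and -0.02 over all genes, and 52 of the 54 values were above 0. For 26 identifiers all 3 cry1 blue values lay above all 3 WT blue values, which was so for 17.2% of all genes.

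Among the abundant 3, ATMG01390 stood at 112, 80.1 and 55.2 TPM in WT blue and at 225, 292 and 341 TPM in cry1 blue. ATMG00020 stood at 82.0, 40.8 and 29.0 TPM in WT blue and at 163, 239 and 260 TPM in cry1 blue. ATMG00030 stood at 27.6, 16.2 and 9.83 TPM in WT blue and at 42.4, 39.2 and 57.1 TPM in cry1 blue. For all 3 the groups did not overlap, and in WT blue replicate 1 was the highest and replicate 3 the lowest. The log2 fold change was 1.82 (SE 0.51, adjusted p = 0.0196) for ATMG01390, 2.21 (SE 0.45, adjusted p = 0.00311) for ATMG00020 and 1.42 (SE 0.38, adjusted p = 0.0146) for ATMG00030. ATMG00020 kept its call without any single library. ATMG01390 missed the threshold without WT blue replicates 2 or 3 or cry1 blue replicates 2 or 3, each left out alone (adjusted p up to 0.0696), and ATMG00030 when WT blue replicate 3 or cry1 blue replicate 3 was left out (adjusted p up to 0.0619).

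ATMG00080 and ATMG00090 had the largest fold changes in blue light, and like ATMG00070 they have no noted product. ATMG00080 stood at 1.51, 2.18 and 0 TPM in WT blue and at 5.04, 19.9 and 17.0 TPM in cry1 blue. ATMG00090 stood at 2.61, 1.75 and 1.27 TPM in WT blue and at 8.61, 17.7 and 15.4 TPM in cry1 blue. ATMG00070 was listed at 1.76, 0 and 0 TPM in WT blue and at 1.46, 6.02 and 9.21 TPM in cry1 blue. The groups did not overlap for ATMG00080 and ATMG00090 and overlapped for ATMG00070, and for all 3 cry1 blue replicate 1 was the lowest of its group. The log2 fold change was 2.72 (SE 0.49, adjusted p = 0.00165) for ATMG00080 and 2.34 (SE 0.28, adjusted p = 0.000125) for ATMG00090, both past the threshold without any single library. It was 2.0 for ATMG00070 (SE 0.52, adjusted p = 0.0138), which missed the threshold without WT blue replicates 2 or 3 or cry1 blue replicate 3, each left out alone (adjusted p up to 0.0669).

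**Figure D2:**
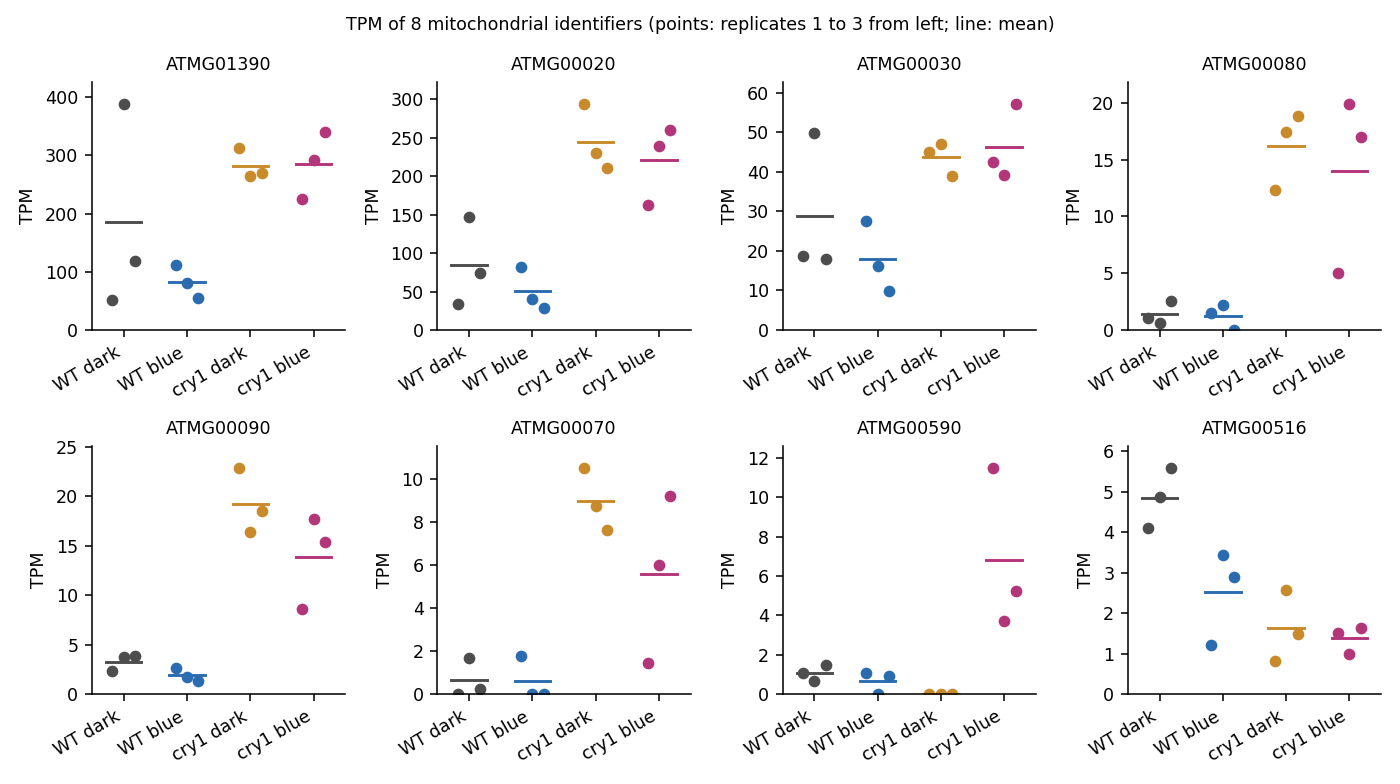
TPM of 8 mitochondrial identifiers in each library (points, replicates 1 to 3 from left) with the group mean (line), by group; each panel has its own axis from 0. ATMG00080 and ATMG00090 are higher in all cry1 libraries than in all WT libraries, ATMG00590 is listed at 0 in all 3 cry1 dark libraries and highest in cry1 blue, and ATMG00516 is highest in WT dark.

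By role, 6 of the 18 identifiers with a noted product or unknown protein were higher in cry1 blue, and 18 of the other 36. Counts of identifiers by role, here and below, cover the 18 alone, since the other 36 have no role in the notes. The 6 included both identifiers noted for cytochrome c maturation, the attachment of haem to cytochrome c. ATMG00960, noted as a cytochrome c assembly protein, was listed at 0 in all 3 WT blue libraries and at 0.77, 0.34 and 1.16 TPM in cry1 blue, a difference of 0.79 on the log2(TPM + 1) scale (SE 0.23, adjusted p = 0.0246). ATMG00180, noted as a cytochrome c biogenesis protein, stood at 1.49, 1.06 and 0.74 TPM in WT blue and at 2.43, 2.16 and 2.24 TPM in cry1 blue, a log2 fold change of 0.66 (SE 0.19, adjusted p = 0.0216). These are small differences between levels near 1 TPM, with no overlap between the groups. Without WT blue replicates 2 or 3 or cry1 blue replicates 1 or 3, each left out alone, both missed the threshold, and ATMG00960 also missed it without WT blue replicate 1 (adjusted p up to 0.112).

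Of 4 identifiers tied to the mitochondrial ribosome through their nuclear copies, 2 were higher in cry1 blue. ATMG00210, ribosomal protein L5 of the large subunit, stood at 0, 0.95 and 0.94 TPM in WT blue and at 2.15, 2.06 and 3.04 TPM in cry1 blue, a log2 fold change of 1.12 (SE 0.31, adjusted p = 0.0176). ATMG00560, noted as a nucleic acid-binding OB-fold-like protein whose copy matches the rpl2 gene of the RefSeq mitochondrial chromosome, stood at 0.71, 0.31 and 0.26 TPM in WT blue and at 1.63, 2.53 and 2.49 TPM in cry1 blue, a log2 fold change of 1.17 (SE 0.28, adjusted p = 0.00791). ATMG00560 kept its call without any single library, and ATMG00210 missed the threshold when WT blue replicate 1 or cry1 blue replicate 3 was left out (adjusted p up to 0.0730). ATMG00980, noted as a protein of the S12/S23 family of the small subunit, and ATMG00290, ribosomal protein S4, did not pass.

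Of the identifiers with a noted product, 1 was noted for complex I, 1 related to complex III, 1 for complex IV and 4 for ATP synthase. Others may be among the identifiers without a noted product, whose roles were not read. ATMG01320, NADH dehydrogenase 2B, a part of complex I, which takes electrons from NADH, stood at 3.91, 1.04 and 1.78 TPM in WT blue and at 5.14, 3.64 and 7.21 TPM in cry1 blue. Its groups overlapped, and its log2 fold change of 1.02 (SE 0.32, adjusted p = 0.0336) missed the threshold without WT blue replicates 2 or 3 or cry1 blue replicates 1 or 3, each left out alone (adjusted p up to 0.152). ATMG00730, subunit 3 of cytochrome c oxidase, the complex that reduces oxygen, stood at 0.36, 1.1 and 0.21 TPM in WT blue and at 1.72, 1.18 and 0.96 TPM in cry1 blue. It did not pass, with a log2 fold change of 0.58 (adjusted p = 0.0839). None of the 4 identifiers noted as ATP synthase subunits passed in any contrast. ATMG01190, ATP synthase subunit 1, the most abundant of them, stood at 8.0, 8.46 and 1.90 TPM in WT blue and at 5.46, 10.3 and 9.75 TPM in cry1 blue, and its log2 fold change was 0.56 (adjusted p = 0.376).

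The count in blue light rested on some libraries more than others. WT blue replicate 3 was the lowest of its group for 29 of the 54 identifiers and the highest for 2. Without it 10 identifiers were higher in cry1 blue, without cry1 blue replicate 3 there were 11 and without cry1 blue replicate 2 there were 13. Over all genes the count higher fell as well, from 2213 to 2009, 1463 and 1532 in the same order. The 6 that passed without any single library were ATMG00020, ATMG00080, ATMG00090, ATMG00560, ATMG00590 and ATMG00640. The root markers moved the same way (4 of 4 higher in cry1 blue), as did 57 of 74 plastid genes and 2 of 3 genes of dividing cells. Of 4 green shoot markers, named in the next paragraph, 1 was higher in cry1 blue and none was lower. The part of these genes in the result was not tested.

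In the dark identifiers passed the test in both directions. Of the 54 identifiers, 12 were higher in cry1 dark than in WT dark and 2 were lower, where 5.33% of all genes were higher and 23.5% lower. The median log2 fold change was 0.36 over the 54 and -0.29 over all genes, and 44 of the 54 values were above 0. For 14 identifiers all cry1 dark values lay above all WT dark values, against 9.97% of all genes. Scaling the libraries by a trimmed mean of log ratios moved the median of all genes to -0.04, with 2315 of 20314 genes then higher and 2749 lower. Of the identifiers 15 were then higher, the 12 among them, and none was lower. Without cry1 dark replicate 1 there were 7 higher, while the count over all genes fell from 1082 to 833. Of the 12, 6 passed without any single library. Of the 12, ATMG00170 and ATMG00620 hold the same value in each of the 12 libraries and are 1 measurement. Of 4 root markers 3 were higher in cry1 dark, and of 4 green shoot markers (LHCB1.1, LHCB2.1, RBCS1A and RBCS1B) 3 were lower, with sums of 1165 to 1334 TPM in WT dark and 402 to 511 TPM in cry1 dark. Their part in the result was not tested.

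ATMG00080, ATMG00070 and ATMG00090 had the largest fold changes in the dark. ATMG00080 stood at 1.04, 0.63 and 2.52 TPM in WT dark and at 12.4, 17.4 and 18.9 TPM in cry1 dark. ATMG00070 stood at 0, 1.69 and 0.25 TPM in WT dark and at 10.5, 8.76 and 7.62 TPM in cry1 dark. ATMG00090 stood at 2.30, 3.70 and 3.80 TPM in WT dark and at 22.8, 16.3 and 18.4 TPM in cry1 dark. None of these groups overlapped. The log2 fold change was 2.90 (SE 0.49, adjusted p = 0.00183) for ATMG00080, 2.72 (SE 0.52, adjusted p = 0.00346) for ATMG00070 and 2.25 (SE 0.28, adjusted p = 0.00047) for ATMG00090, and all 3 passed without any single library.

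Among the abundant identifiers, ATMG00020 stood at 34.2, 147 and 73.8 TPM in WT dark and at 293, 230 and 210 TPM in cry1 dark, a log2 fold change of 1.73 (SE 0.45, adjusted p = 0.0133). Without WT dark replicate 1 it was 1.21 (adjusted p = 0.0587). ATMG01390 stood at 52.0, 388 and 118 TPM in WT dark and at 312, 265 and 269 TPM in cry1 dark, and ATMG00030 at 18.8, 49.9 and 18.0 TPM and at 45.1, 47.1 and 38.8 TPM. WT dark replicate 2 held the highest value of all 12 libraries for ATMG01390 and exceeded all cry1 dark values for both identifiers. Neither passed the test (adjusted p = 0.132 for ATMG01390 and 0.156 for ATMG00030). Across the 54, WT dark replicate 2 was the highest of its group for 26 identifiers and WT dark replicate 1 the lowest for 28.

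ATMG00730, subunit 3 of cytochrome c oxidase, stood at 0.40, 0.68 and 0.53 TPM in WT dark and at 2.21, 2.39 and 2.06 TPM in cry1 dark. The groups were far apart for such low levels, with a log2 fold change of 1.07 (SE 0.23, adjusted p = 0.00597) that passed without any single library. ATMG01210 was listed at 0 throughout WT dark and at 0.93, 2.2 and 1.69 TPM in cry1 dark, a difference of 1.35 on the log2(TPM + 1) scale (SE 0.32, adjusted p = 0.00847). ATMG01200 stood at 2.03, 1.79 and 3.05 TPM in WT dark and at 5.46, 5.40 and 5.02 TPM in cry1 dark, a log2 fold change of 0.95 (SE 0.21, adjusted p = 0.0071). ATMG01210 and ATMG01200 also passed without any single library. The remaining higher identifiers were ATMG00170, ATMG00270, ATMG00285, ATMG00620 and ATMG00830, with log2 fold changes of 0.75 to 1.04.

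The 2 identifiers lower in cry1 dark were ATMG00516 and ATMG00590. ATMG00516 stood at 4.11, 4.87 and 5.58 TPM in WT dark, at 1.22, 3.44 and 2.90 TPM in WT blue, at 0.81, 2.57 and 1.48 TPM in cry1 dark and at 1.5, 0.98 and 1.64 TPM in cry1 blue. All WT dark values lay above all other libraries, and the log2 fold change between the dark groups was -1.21 (SE 0.30, adjusted p = 0.0108). It passed without any single library and missed the threshold after the trimmed-mean scaling (-0.95, adjusted p = 0.0692). ATMG00590 is described with the light response below.

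**Figure D3:**
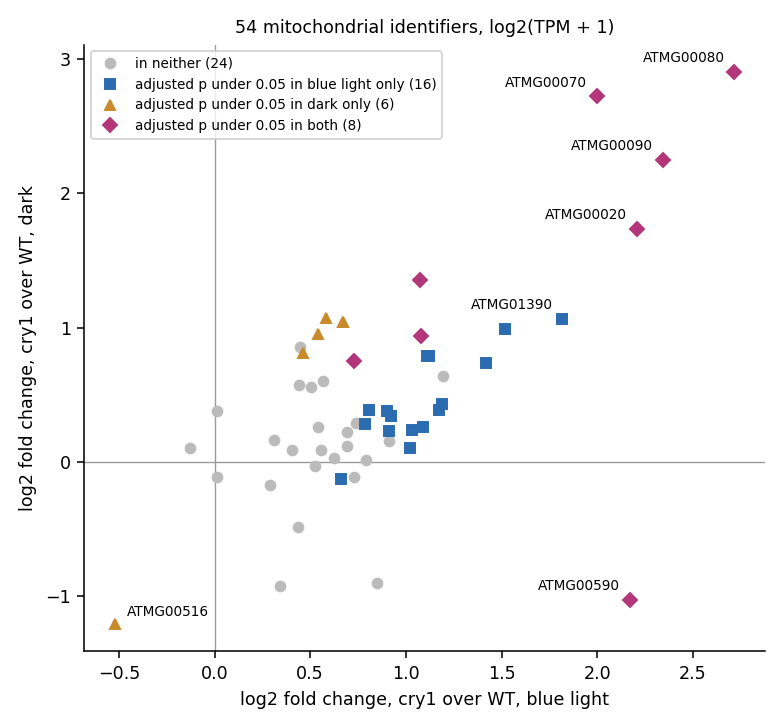
Log2 fold change of cry1 over WT in the dark (vertical axis) against that in blue light (horizontal axis) for the 54 mitochondrial identifiers, on log2(TPM + 1); colour and shape give where the adjusted p was under 0.05. Most points lie to the right of 0 and above it, ATMG00080, ATMG00070, ATMG00090 and ATMG00020 lie farthest out in both conditions, and ATMG00590 lies to the right and below.

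The contrasts of genotype in the dark and in blue light share no library. Higher in both were 7 identifiers (ATMG00020, ATMG00070, ATMG00080, ATMG00090, ATMG00285, ATMG00830 and ATMG01210), which is 29.2% of the 24 and 58.3% of the 12. The sign agreed for 44 of the 54, and Pearson's r over the 54 was 0.62 (Spearman's rho 0.48). The points of this description are genes of the same libraries, which share scaling and depth. Whether the genotype difference changed with light is the interaction, which a single identifier passed, so that a call in blue light alone does not show a difference between the conditions.

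When each library was centred on the mean log2 level of the 54, an alternative chosen after seeing the data, 6 identifiers stayed higher in cry1 blue: ATMG00080 (1.85), ATMG00090 (1.48), ATMG00020 (1.34), ATMG00590 (1.31), ATMG00070 (1.13) and ATMG01390 (0.95). ATMG00516 (-1.38) and ATMG00290 (-0.99) were then lower. In the dark ATMG00080 (2.44), ATMG00070 (2.26), ATMG00090 (1.79), ATMG00020 (1.27) and ATMG01210 (0.89) stayed higher, and ATMG00516 (-1.67), ATMG00590 (-1.49), ATMG00630 (-1.39), ATMG00650 (-1.37) and ATMG00980 (-0.95) were lower. ATMG00080, ATMG00090, ATMG00020 and ATMG00070 thus lay above the average change of the mitochondrial identifiers in both conditions. Centring moved all genes: of 20314, 402 were then higher and 13727 lower in blue light, and 293 and 11325 in the dark. With so many genes past it, the adjusted threshold was easier to pass. ATMG01390 and ATMG00290 passed in blue light at unadjusted p of 0.028 and 0.024 (limma).

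After 1 h of blue light the WT values were lower for a minority of the identifiers. Of the 54 identifiers none was higher in WT blue than in WT dark at either an adjusted or an unadjusted p under 0.05, and 8 were lower. Among all genes 9.73% were higher and 25.3% lower, so the share of members that were lower (14.8%) was below that background. The median log2 fold change was -0.45 over the 54 and -0.27 over all genes. After the trimmed-mean scaling these medians were -0.28 and -0.01, and 3 identifiers were lower (ATMG00520, ATMG00960 and ATMG01320). Over all 20314 genes, 3561 were then higher and 3384 lower. Leaving out a library gave 3 to 9 lower identifiers, with 3 without WT dark replicate 2 or WT blue replicate 3, 4 without WT dark replicate 3 or WT blue replicate 2 and 5 without cry1 blue replicate 3. The count over all genes fell too. It was 5144 lower with all libraries, 3075 without WT dark replicate 2 and 3626 without WT blue replicate 3.

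By role, the 8 comprised NADH dehydrogenase 2B, both noted cytochrome c maturation identifiers and 2 of the 4 noted for ribosomal proteins. The other 3 had no noted product. ATMG01320, NADH dehydrogenase 2B, stood at 6.95, 7.17 and 4.53 TPM in WT dark and at 3.91, 1.04 and 1.78 TPM in WT blue. The groups did not overlap, and the log2 fold change was -1.23 (SE 0.32, adjusted p = 0.0114). Without WT blue replicate 2 it was -0.94 (adjusted p = 0.0559). ATMG00520 stood at 2.49, 4.32 and 3.36 TPM in WT dark and at 1.33, 0.92 and 0.70 TPM in WT blue, a log2 fold change of -1.14 (SE 0.24, adjusted p = 0.00314). It is the single one of the 8 that passed without any single library.

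Of the noted ribosomal protein identifiers, ATMG00210 and ATMG00980 fell in WT. ATMG00210 (L5) stood at 1.37, 2.88 and 1.60 TPM in WT dark and at 0, 0.95 and 0.94 TPM in WT blue, and ATMG00980 (S12/S23 family) at 3.42, 2.52 and 1.19 TPM and at 0.56, 1.02 and 0.69 TPM. Both had a log2 fold change of -0.89, with an adjusted p of 0.0406 for ATMG00210 and 0.0258 for ATMG00980. The value of ATMG00980 is that of its nuclear copy AT2G07675 in all 12 libraries, so the 2 rows are 1 measurement. For cytochrome c maturation, ATMG00960 stood at 0.65, 0.50 and 1.01 TPM in WT dark and was listed at 0 in WT blue (difference -0.77 on the log2(TPM + 1) scale, adjusted p = 0.0217), and ATMG00180 stood at 2.09, 1.94 and 2.04 TPM in WT dark (log2 fold change -0.54, adjusted p = 0.0405). In each of these 4 the WT dark values lay above the WT blue values. ATMG00630 (-1.26, adjusted p = 0.0406) and ATMG00580 (-0.74, adjusted p = 0.0387) completed the 8. These 6 missed the threshold without each of 4 to 8 of the 12 libraries in turn.

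**Figure D4:**
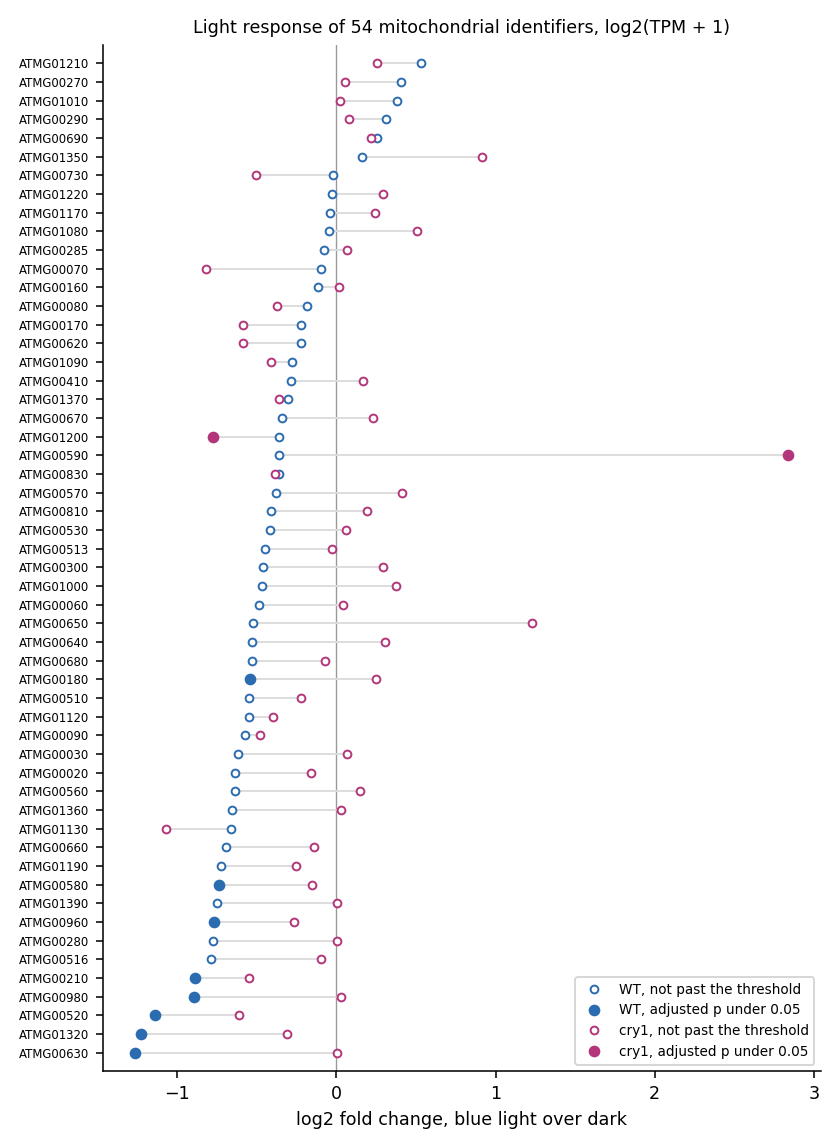
Log2 fold change of blue light over dark in WT (blue) and in cry1 (magenta) for the 54 mitochondrial identifiers, ordered by the WT value; filled points have an adjusted p under 0.05 and a grey line joins the values of an identifier. In WT 8 identifiers are filled and all lie below 0, and in cry1 ATMG00590 lies far to the right of the rest, with a difference of 2.84.

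In cry1 the mitochondrial identifiers as a whole were at similar levels in the dark and after blue light. The sum of all 152 in cry1 blue was 0.961 times that in cry1 dark, and 0.880 to 1.06 times with 1 library left out. In WT the ratio was 0.480, or 0.768 without WT dark replicate 2. Leaving ATMG01380 out of the sums made these 0.534 and 0.828. The difference between the ratios of cry1 and WT was not tested. The median log2 fold change of the 54 was 0.01 in cry1, against -0.06 over all genes. There was 1 identifier higher (background 9.19%) and 1 lower (background 5.73%). For 6 identifiers all cry1 blue values lay above all cry1 dark values (15.9% of all genes), and for 3 below (12.5%). The lower one was ATMG01200, at 5.46, 5.40 and 5.02 TPM in cry1 dark and at 2.11, 3.48 and 2.58 TPM in cry1 blue, a log2 fold change of -0.77 (SE 0.21, adjusted p = 0.0272). It missed the threshold without any of the cry1 dark libraries or without cry1 blue replicate 1 or 3 (adjusted p up to 0.107).

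The higher one was ATMG00590, noted as a cytochrome b/b6 protein. It stood at 1.06, 0.67 and 1.47 TPM in WT dark and at 1.08, 0 and 0.93 TPM in WT blue. In cry1 it was listed at 0 in all 3 dark libraries and at 11.5, 3.72 and 5.23 TPM after blue light. Every cry1 blue library lay above the other 9 libraries, with replicate 1 the highest. The difference between cry1 blue and cry1 dark was 2.84 on the log2(TPM + 1) scale (SE 0.35, adjusted p = 9.59e-05). Against WT blue the log2 fold change was 2.17 (SE 0.35, adjusted p = 0.000803), and both passed without any single library.

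The interaction, which subtracts the light response of WT from that of cry1, was 3.20 for ATMG00590 (SE 0.50, adjusted p = 0.0041). It passed without any single library, at 2.80 to 3.5. No other identifier passed, higher (background 6.84%) or lower (background 2.33%), and 5 were higher and none lower at an unadjusted p under 0.05. The lower level of ATMG00590 in cry1 dark than in WT dark (-1.03, SE 0.35, adjusted p = 0.0426) rested on values of 0.67 to 1.47 TPM against 0. It missed the threshold without each of 8 libraries in turn (every WT dark and every cry1 dark library, WT blue replicate 3 and cry1 blue replicate 3, adjusted p up to 0.115) and after the trimmed-mean scaling (adjusted p = 0.0967).

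The nuclear copy of ATMG00590 had another pattern. AT2G07718 stood at 1.53, 2.95 and 1.84 TPM in WT dark, at 0.99, 1.06 and 0.85 in WT blue, 2.61, 2.62 and 2.32 in cry1 dark, and 2.79, 2.68 and 2.93 in cry1 blue. It was above 0 in every library. When both rows were summed, the light response in cry1 was 1.53 (adjusted p = 0.00134) and the interaction 2.2 (adjusted p = 0.00664), while the cry1 dark difference was -0.24 (adjusted p = 0.514). The identifier and its copy have the same coding sequence over all 942 bases, so the division of reads between the 2 rows is uncertain.

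Elsewhere too, values sat on one copy or the other. Of 46 pairs of an ATMG identifier and a nuclear copy in the tables, the nuclear copy had the higher mean in 27, the mitochondrial identifier in 14, and 5 were equal. In 10 pairs the nuclear copy averaged at least 1 TPM and the identifier less, and in 5 it was the reverse. Across the copy in chromosome 2, 30 genes were tested, of which 11 were higher in cry1 blue (36.7%, against 10.9% of all genes) and 6 higher in cry1 dark (20.0%, against 5.33%). The 5 that were lower in WT blue than in WT dark were 16.7%, below the 25.3% of all genes.

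The main gene of complex III was listed almost wholly under its nuclear copy. ATMG00220, apocytochrome b, was at 0 in 9 libraries and at 0.01 to 0.26 TPM in the other 3. AT2G07727, its copy with the same sequence over 1182 bases, stood at 1.83, 4.58 and 1.72 TPM in WT dark, at 1.25, 0.87 and 0.60 in WT blue, 6.04, 5.22 and 4.88 in cry1 dark, and 3.14, 5.11 and 6.03 in cry1 blue. It was higher in cry1 in blue light (log2 fold change 1.57, SE 0.29, adjusted p = 0.00185), without any single library too. In the dark it was 0.86 (adjusted p = 0.0414), which missed the threshold without each of 6 libraries in turn (WT dark replicate 1 or 3, any cry1 dark library or cry1 blue replicate 2, adjusted p up to 0.150).

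ATMG00370 was listed at 0 in all 12 libraries. Its copy AT2G07739, noted as a Ycf1 protein, which is a plastid protein, stood at 2.94, 2.38 and 7.01 TPM in WT dark, at 3.99, 2.70 and 2.02 in WT blue, 35.6, 27.5 and 32.9 in cry1 dark, and 6.14, 34.1 and 28.3 in cry1 blue. The cry1 dark values lay far above WT, and cry1 blue replicate 1 stood apart from its group. The log2 fold change was 2.35 in blue light (SE 0.49, adjusted p = 0.00388) and 2.79 in the dark (SE 0.49, adjusted p = 0.00228). Of its bases, 520 of 533 (97.6%) were also those of the plastid genome, whose genes differed between genotypes in the same direction (62 of 74 higher in cry1 dark).

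**Figure D5:**
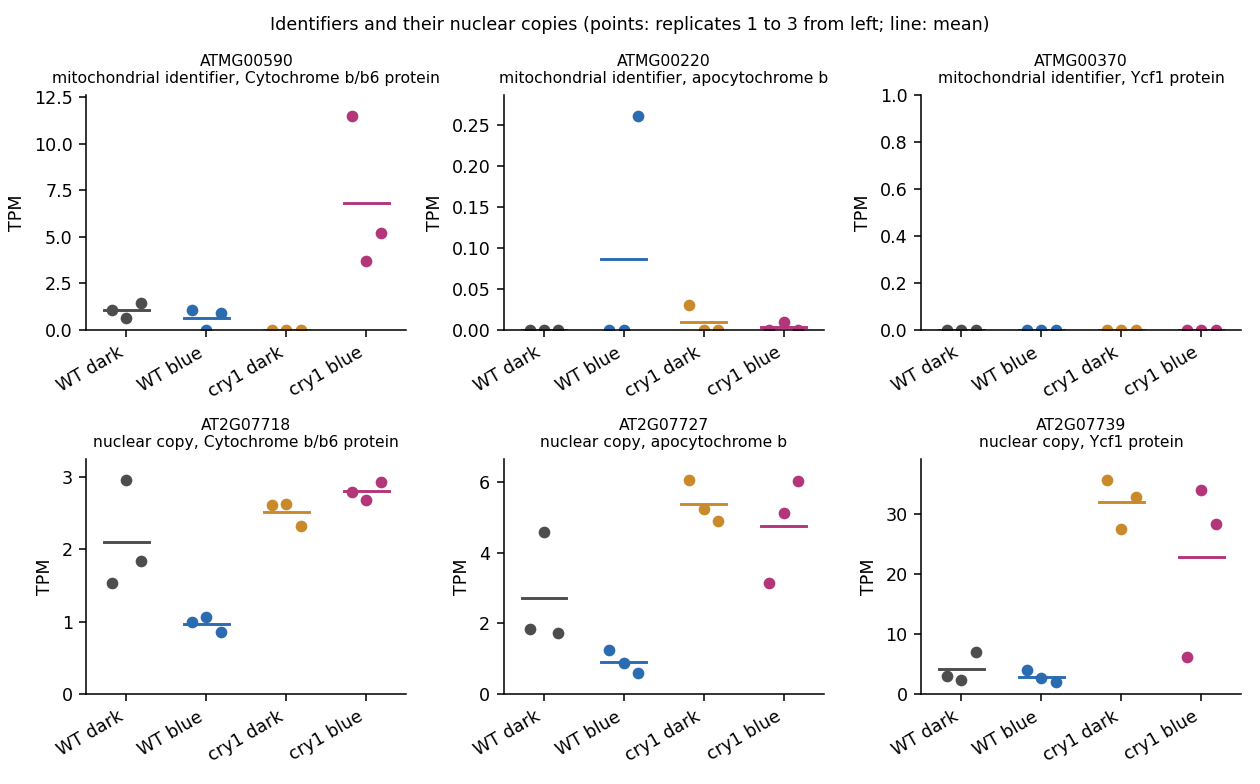
TPM of 3 mitochondrial identifiers (upper row) and of their nuclear copies in chromosome 2 (lower row) in each library (points, replicates 1 to 3 from left) with the group mean (line); each panel has its own axis from 0. ATMG00220 and ATMG00370 are at or near 0 where their copies reach 6.04 and 35.6 TPM, and ATMG00590 differs from its copy in cry1 dark, where it is listed at 0.

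The spread within a group was wide for some identifiers. The largest pooled within-group spread of log2(TPM + 1) belonged to ATMG01080, ATMG01120 and ATMG01370. ATMG01080, subunit 9 of the proton-carrying ring of ATP synthase, stood at 0, 2.86 and 4.89 TPM in WT dark, at 3.94, 3.19 and 0 in WT blue, 1.63, 4.67 and 4.77 in cry1 dark, and 6.01, 3.41 and 7.01 in cry1 blue. Its nuclear copy AT2G07671 ranged from 5.28 to 37.1 TPM and had the highest mean of the genes in the insertion, 22.7 TPM. Neither row passed in any contrast. ATMG01120 was listed at 0 in 7 libraries and reached 5.35 TPM in WT dark replicate 2, and ATMG01370 ranged from 0 to 6.99 TPM.

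Nuclear genes that serve the mitochondrial genome were read from lists chosen by function. Of 3 genes of mitochondrial transcription none passed in any contrast at an adjusted p, and none at an unadjusted p under 0.05; their log2 fold changes were -0.27 to 0.14 between genotypes in blue light. Of 24 genes for RNA splicing, editing and processing, 8 were lower in WT blue than in WT dark (RNR1, an exoribonuclease, -1.24, adjusted p = 0.00105; MCSF1, a splicing factor, -0.79, adjusted p = 0.00747) and none was higher. These 8 are 33.3% of the list, where 25.3% of all genes were lower. Between genotypes 2 were higher in cry1 in blue light and again in the dark, the editing factor MORF8 (0.75 and 0.56) and RPF3 (0.93 and 0.89), which acts on transcript ends. Of all genes 10.9% were higher in cry1 in blue light and 5.33% in the dark. MCSF1 (-0.83) and RNR1 (-0.82) were the 2 of the 24 that were lower in cry1 dark, a share below the 23.5% of all genes. Of 10 genes of mitochondrial DNA maintenance 1 passed, ODB1, lower in cry1 blue (-0.64, adjusted p = 0.0280), where 14.3% of all genes were lower.

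Nuclear-encoded respiratory genes passed the test in both directions. In blue light 7 of 56 genes of complexes I to IV, ATP synthase and the mitochondrial ribosome were higher in cry1 and 7 lower, 12.5% each, near the 10.9% and 14.3% of all genes. In the dark 10 were higher (17.9%, against 5.33%) and 2 lower (3.57%, against 23.5%). Of 11 genes of the alternative pathways, which bypass the proton-pumping complexes, 5 were lower and 1 higher in cry1 blue, where 14.3% of all genes were lower and 10.9% higher. AOX1A, the main alternative oxidase, stood at 329, 331 and 304 TPM in WT dark, at 232, 338 and 138 in WT blue, 151, 111 and 171 in cry1 dark, and 42.5, 45.9 and 46.3 in cry1 blue. The groups did not overlap in either condition, and the log2 fold change was -2.28 in blue light (SE 0.26, adjusted p = 0.000102) and -1.17 in the dark (SE 0.26, adjusted p = 0.00662). Of 6 genes of the mitochondrial stress response 4 were lower in cry1 blue (14.3% of all genes) and 5 in cry1 dark (23.5% of all genes), and none was higher.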

How the data were processed

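RNA was sequenced from 12 libraries in 4 groups of 3, with groups taken from the sample labels. The deposited values are TPM per gene as the authors made them, in 1 table per library, and they carry no read depth. Per the submitters' processing notes the genome build was TAIR10 and the tools named, with no role or order, were Trimmomatic 0.36, HISAT2 2.2.1.0, Cufflinks, TopHat, Bowtie2 and DESeq 1.18.0. Of strandedness, gene models and multi-mapped reads, the sources used here state nothing. The labels' protocols give total RNA and a TruSeq RNA kit. No other value column was present (0).

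Genes with at least 1 TPM in at least 3 libraries (20314) were tested with limma 3.58.1 in R 4.3.3 on log2(TPM + 1), with a mean per group, all 12 libraries in 1 fit and a variance trend. Fold changes are on that scale, which understates changes of low genes. P-values were adjusted by Benjamini-Hochberg within each of 5 contrasts over all genes tested, at a threshold of 0.05. The script was tested on simulated data. Nuclear copies were aligned with BLAST 2.17.0 to RefSeq TAIR10.1, and tables and figures were made with Python 3.11.15, pandas 2.3.3, numpy 2.4.6 and matplotlib 3.10.9.

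The members and lists were chosen with earlier results of these data known. Identifiers were named by rule. Per contrast, the 3 largest changes in each direction were taken among those past the threshold whose groups did not overlap. To these were added the 6 highest means, the 3 widest spreads, up to 4 per role by adjusted p, and up to 2 nuclear genes per list. Nuclear copies were those of highest mean. Other identifiers are named to complete a count or a pair and were chosen after their values were seen. Alternatives were other scalings (trimmed mean, quantile, nuclear genes alone), a pseudocount of 0.1, other filters, no variance trend, a replicate block and leaving out each library. Added after seeing the data were centring on the mitochondrial mean, summing an identifier with its nuclear copy, leaving out WT dark replicates 1 and 2 together, sums without each library or ATMG01380, counts without ATMG01350, and the alternatives for named nuclear genes.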

Additional observations from a re-analysis of the deposited data

Results flagged for a closer look

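ATMG00590, noted as a cytochrome b/b6 protein, differed between the genotypes in its light response by the test of that difference itself. The interaction on the log2(TPM + 1) scale was 3.20 (SE 0.50, limma, Benjamini-Hochberg adjusted p = 0.0041), from a light response of 2.84 in cry1 (adjusted p = 9.59e-05) and -0.36 in WT (adjusted p = 0.441). Its nuclear copy AT2G07718 has the same coding sequence, so the division of reads between these rows is uncertain. Summing both rows gave a smaller interaction that also passed, as given above.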

How the results depend on the processing

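Reads shared with nuclear copies, the low levels of most identifiers and groups of 3 libraries limit these results, and TPM gives no depth from which a detection limit could be set. The counts are of the 54 identifiers, with 8 lower in WT light, 1 higher and 1 lower in cry1 light, 24 higher in blue and 12 higher and 2 lower in the dark between genotypes, and 1 higher interaction. Trimmed-mean scaling gave 3 lower in WT light, 2 higher in cry1 light and 0 lower in the dark. Quantile normalization gave 3, 2 and 0 for these, and 2 lower in cry1 light. Testing the 14 identifiers at 1 TPM in all 12 libraries gave 1 lower in WT light, 0 higher in cry1 light, 7 higher in blue, 4 higher and 0 lower in the dark, and 0 for the interaction; fewer were tested. Without a filter there were 5 lower in WT light and 1 lower in the dark. Centring on the mitochondrial mean gave 1 higher and 1 lower in WT light, 0 lower in cry1 light, 6 higher and 2 lower in blue, and 5 higher and 5 lower in the dark. The counts over all genes moved with the centring too, as given above for the genotype contrasts. Summing with the nuclear copy gave 1 lower in the dark. Without WT dark replicates 1 and 2 there were 0 lower in WT light and 0 higher and 0 lower in the dark; WT dark then holds 1 library, assumed to vary like the other groups, and over all genes calls in the dark fell to 19 higher and 95 lower. Except for the smaller sets tested or fitted, the cause was not tested.

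Leaving out each library in turn gave 3 to 9 lower and 0 to 0 higher in WT light, 1 to 2 higher and 0 to 1 lower in cry1 light, 10 to 26 higher and 0 to 0 lower in blue, 7 to 13 higher and 1 to 2 lower in the dark, and 1 to 2 higher and 0 to 0 lower for the interaction. The 7 in the dark came without cry1 dark replicate 1. The counts over all genes moved too, as given above. Centring lowers every blue-light value by 0.86, so small ones change sign by construction. This held for 4 of the 24 called, ATMG00180 (-0.21), ATMG00960 (-0.079), ATMG00830 (-0.14) and ATMG00513 (-0.059), and for 30 of all 54. In blue light ATMG00290, which lay below 0 before centring and had not passed, was above 0 (1.25) when summed with its copy. Calls kept in blue light were 24 of 24 with trimmed-mean scaling, 23 with quantile normalization and 22 with a pseudocount of 0.1.

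The values showed no pairing of the libraries by replicate number, which does not tell how the libraries were handled. Same-numbered libraries had deviations correlated at -0.368 to 0.312 over 18 pairs of libraries, with 3 over 0.1. Other pairs between groups ran from -0.334 to 0.286 over 36 pairs, with 13 over 0.1. With the replicate block 0 identifiers were lower in cry1 light and 7 higher in the dark, and 23 of the 24 calls in blue light were kept.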

Other observations

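ATMG01380, short of the rule, was listed at 42.5 and 102 TPM in WT dark replicates 1 and 2 and at 0 in the other 10 libraries. AT2G07830, a gene of the mitochondrial copy in chromosome 2, was listed at 103 TPM in WT dark replicate 1 and at 0 in the other libraries.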
